A study of Mus musculus with 12 samples.

Results

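The unfolded protein and ATF4 response genes described here are 10 genes out of the 55335 that were quantified in each library: Hspa5, Hsp90b1, Pdia4, Sdf2l1, Dnajb9, Herpud1, Xbp1, Atf4, Ddit3 and Trib3. They were taken by gene symbol, and the rule uses no measured value, although the set was proposed with earlier results of these data known. The libraries are RNA-seq of BMDCs, which are dendritic cells that form when bone marrow is cultured with GM-CSF, here for 6 days before cells with CD11c were taken with magnetic beads. The marrow came from male and female C57BL/6 mice of 8 to 12 weeks. There were 4 groups of 3 replicates, which the series calls biological triplicates. WT cells were CreER and KO cells were CreER;CTCF fl/fl, and both genotypes were studied without treatment (WT and KO) or after 3 h of LPS at 100 ng/ml (WTL and KOL). LPS, a bacterial lipid, is sensed by the receptor TLR4. CTCF is a DNA-binding protein that organizes chromatin loops. Cre was an inducible CreER from the Rosa26 locus, present in both genotypes, and the floxed Ctcf allele was deleted with 4-OH tamoxifen (0.5 µM) given from the first culture day. The study says that this was done for KO and not for WT cells, which leaves unclear whether WT cultures got the drug. If they did not, an effect of 4-OH tamoxifen and of Ctcf deletion cannot be told apart in any comparison of KO with WT cells. The cells were a bulk population, in which fewer cells of a type and less RNA per cell cannot be told apart.

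Proteins that enter the endoplasmic reticulum (ER) are folded there by chaperones and by enzymes that form disulfide bonds. When unfolded proteins accumulate, the ER membrane sensors IRE1 (Ern1), PERK (Eif2ak3) and ATF6 start the unfolded protein response. IRE1 splices the Xbp1 mRNA so that it encodes an active transcription factor, ATF6 is cut to release a transcription factor, and both raise ER chaperones and the machinery of ER-associated degradation. PERK phosphorylates the translation factor eIF2alpha, which lowers protein synthesis but allows translation of ATF4. ATF4 and its target CHOP (Ddit3) induce genes of amino acid supply and stress, among them Trib3. Kinases that sense amino acid shortage, heme shortage or double-stranded RNA reach ATF4 by the same phosphorylation. In dendritic cells, the IRE1 and XBP1 branch is known to be active already at rest and to affect survival and cytokine production.

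Known binding motifs of these factors through which they are known to act were searched in the promoter of each gene. RefSeq promoter windows of GRCm38.p6, the assembly of mm10, were present for all 10 genes and ran from 250 bases before to 50 bases after the annotated start. The ER stress element (ERSE) is CCAAT, 9 bases of any kind and CCACG, and it was found on either strand in 0.119% of the 32817 mouse windows. Hspa5 held 1 such match and Hsp90b1 held 2. The shorter ERSE-II, ATTGG, 1 base of any kind and CCACG, was found in 0.0366% of windows and in Herpud1. The XBP1 motif core TGACGTG was found in 2.01% of windows and in Hspa5, and the core of the C/EBP-ATF element, TGATG, 1 base of any kind and AA, which ATF4 binds, was found in 3.97% of windows, in Herpud1 and in Trib3. The short element CCACG, which is also part of ERSE and ERSE-II, was common, with 32.8% of all windows and 7 of the 10 genes. The CCAAT box, also part of ERSE, was present in 37.4% of all windows and 8 of the 10. The stretches that hold the matches before the start are printed because these 3 genes carry the rarest motifs and were called higher (Hspa5), not called (Hsp90b1) and called lower (Herpud1) with LPS. Capitals mark the matches of ERSE, ERSE-II and the XBP1 and C/EBP-ATF cores, and a match on the opposite strand appears as its reverse complement.

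Hspa5, chr2:34771918-34772058, plus strand: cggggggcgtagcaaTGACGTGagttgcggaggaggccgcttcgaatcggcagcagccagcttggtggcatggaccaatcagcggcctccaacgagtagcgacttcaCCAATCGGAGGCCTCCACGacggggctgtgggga
Hsp90b1, chr10:86705518-86705671, minus strand: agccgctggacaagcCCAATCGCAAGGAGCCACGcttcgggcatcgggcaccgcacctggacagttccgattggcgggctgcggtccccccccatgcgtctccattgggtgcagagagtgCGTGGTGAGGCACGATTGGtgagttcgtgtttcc
Herpud1, chr8:94386302-94386402, plus strand: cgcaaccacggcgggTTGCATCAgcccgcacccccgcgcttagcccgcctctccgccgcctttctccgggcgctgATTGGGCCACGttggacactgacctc

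In Hspa5 the first capitals are the XBP1 motif core and the second are the ERSE. In Hsp90b1 both are ERSE matches on opposite strands, and in Herpud1 the first are the C/EBP-ATF core on the opposite strand and the second are the ERSE-II. The C/EBP-ATF core of Trib3 lay 14 to 21 bases after the start, on the opposite strand. These matches describe letters in a window, and no binding was measured in these libraries.

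The targeted gene was examined first. Ctcf had 1051, 987.1 and 974.9 normalized counts in WT, 886.1, 816.8 and 745.3 in WTL, 569.7, 561.7 and 516 in KO, and 563.5, 530 and 526.4 in KOL. A normalized count is a count divided by the effective library size and brought to the mean size of the 12 libraries. Every KO and KOL library was below every WT and WTL library, with log2 fold changes of -0.87 ± 0.08 for KO against WT (edgeR adjusted p = 3.9e-07) and -0.59 ± 0.08 for KOL against WTL (adjusted p = 2.4e-05). The gene-level count does not separate transcripts that lack the deleted part from those of cells that kept the allele. The libraries held 12769773 to 16586334 counts. The share of ribosomal RNA was highest in WTL replicate 2 (5.165% of its counts) and lay between 0.383% and 1.185% elsewhere. Variation between replicates was larger with LPS, with a biological coefficient of variation of 13.72% in WTL and 14.41% in KOL against 4.91% in WT and 2.62% in KO. All 10 dendritic cell markers passed the filter on low counts. Their summed level was 11100 to 11700 TPM in WT, 7770 to 8070 in KO, 10600 to 14300 in WTL and 10600 to 15200 in KOL. The lower sum in KO was that of Cd74 (5130 and 4250 TPM on average in WT and KO), H2-Aa (3520 and 1480) and H2-Ab1 (1740 and 923), which make up most of it. Itgax, which encodes the CD11c used for selection, was at 366 TPM in WT and 606 in KO, and Itgam (209 and 221) and Csf2ra (380 and 366) were at similar levels. The remaining dendritic cell markers had lower means in KO than in WT: Flt3 (3.65 TPM in WT and 0.843 in KO), Cd209a (8.96 and 1.96), Ciita (45.8 and 35.9) and Zbtb46 (15.5 and 13.0). All 7 macrophage markers passed the filter, with sums of 510 to 560 TPM in WT, 630 to 656 in KO, 217 to 283 in WTL and 224 to 274 in KOL, mostly from Csf1r (351, 511, 105 and 92.7 on average). The other macrophage markers differed in direction, as Fcgr1 was at 4.31 TPM in WT, 12.4 in WTL and 1.35 in KO, and Adgre1 at 99.2 in WT and 50.4 in KO. Of the 8 plasma and B cell markers, 5 stayed under 1 TPM in every library, and the sums were 27.8 to 46.0 TPM, mostly from Sdc1. The sums of the 5 plasmacytoid dendritic cell markers, mostly Bst2, were 199 to 210 TPM in WT, 166 to 174 in KO, 564 to 703 in WTL and 537 to 707 in KOL. Tcf4 moved like Bst2, with means of 7.88 TPM in WT, 31.4 in WTL, 4.4 in KO and 19.4 in KOL. Ccr9 was higher in KO (2.89) than in WT (0.537). Siglech and Ly6d were at most 0.11 and 0.53 TPM on average in any group. The 7 neutrophil markers, of which 5 passed the filter, summed to 369 to 391 TPM in WT and 192 to 225 in KO, without overlap, and to 340 to 430 in WTL and 287 to 331 in KOL. S100a9 was at 128 TPM in WT and 37.5 in KO, and S100a8 at 244 and 168. Mast cell, T and NK cell and stromal markers summed to at most 8.71, 3.68 and 4.98 TPM, with Mcpt4 and Tpsb2 of mast cells at 0 in all. The part of these markers in the results for the 10 genes was not tested.

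All 10 genes passed the filter on low counts, as did 14008 genes in all. A change is called where edgeR's quasi-likelihood test gave an adjusted p below 0.05 over those genes, and errors of log2 fold changes are standard errors. With LPS in WT cells, 1 of the 10 was called higher and 4 lower, where 30.0% and 30.2% of all genes tested were (60.2% in either direction). With LPS in KO cells, 3 were called higher and 5 lower, where 33.6% and 33.9% of all genes were (67.5% in either direction). Without LPS, KO cells had 3 of the genes higher and 3 lower than WT cells, against 22.2% and 22.4% of all genes (44.6% in either direction). With LPS, KO cells had 2 higher and 1 lower, against 21.4% and 23.3% of all genes (44.7% in either direction). When the fold cutoffs of the study were added, 1 gene was higher (Hspa5, against 12.6% of all genes) and 1 lower (Herpud1, 9.99%) with LPS in WT, and 1 was higher (15.1%) and 2 lower (13.0%) with LPS in KO. KO then had 1 gene higher (17.3%) and 3 lower (17.2%) than WT, and KOL had 0 higher (12.5%) and 1 lower (12.5%) than WTL. The groups did not overlap for 5 of the 10 genes between WTL and WT (65.1% of all genes), for 7 between KOL and KO (71.2%), for 7 between KO and WT (64.2%) and for 2 between KOL and WTL (46.3%). The LPS response itself differed between KO and WT for 2 genes, both higher in KO, against 8.70% of all genes called higher and 8.75% lower (17.4% in either direction). The median log2 fold change of the 10 was -0.24 with LPS in WT, against -0.018 over all genes tested. It was -0.13 with LPS in KO (all genes -0.024), 0.02 for KO against WT (all genes -0.014) and 0.08 for KOL against WTL (all genes -0.035). In each of the 4 comparisons the calls went both ways, as the plot of the values in each library shows. Comparisons that share a group, such as WTL against WT and KO against WT, share those 3 libraries.

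**Figure D1:**
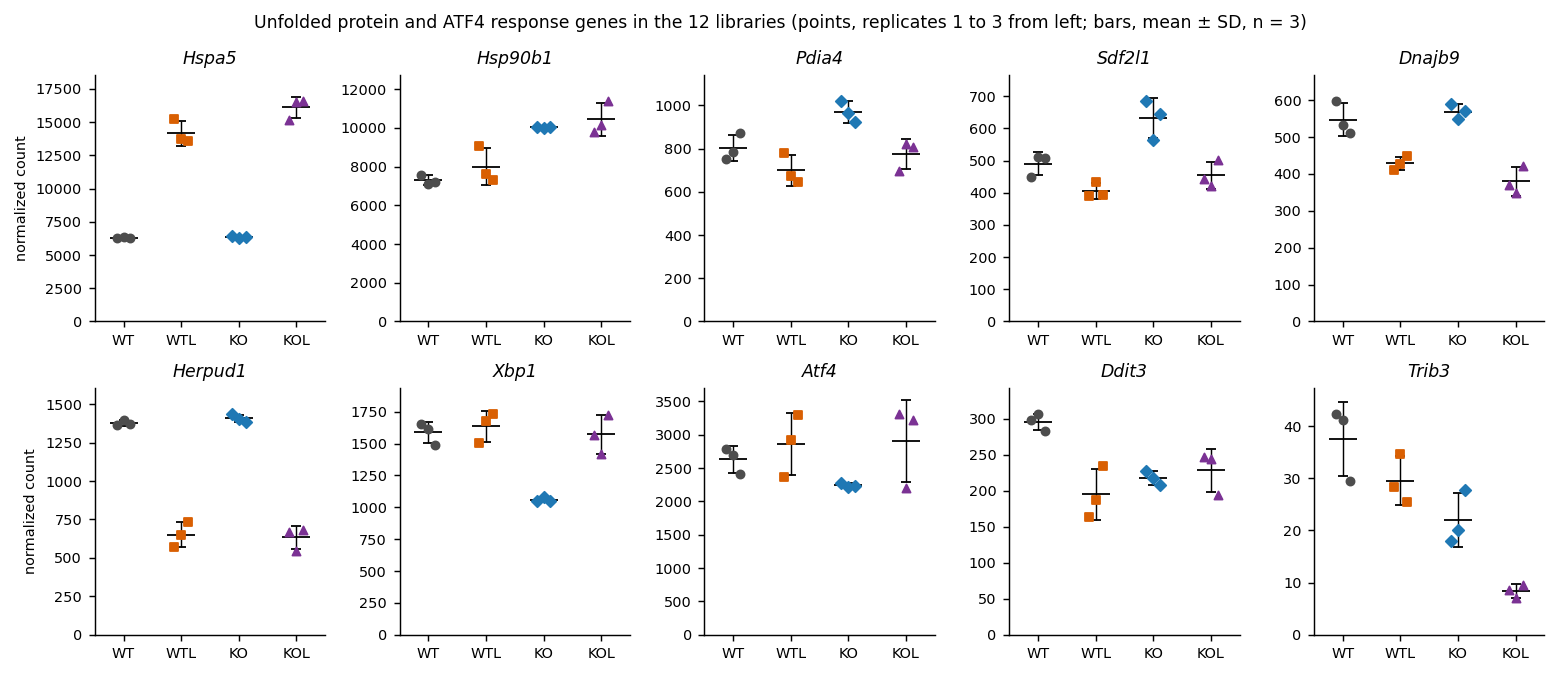
Normalized counts of the 10 genes in the 12 libraries, with 1 panel a gene, the 4 groups on the horizontal axis, a point for each replicate and bars for the mean ± SD (n = 3). Hspa5 was between 13550 and 16591 in all 6 LPS libraries and between 6269 and 6457 in the 6 others, whereas Herpud1 was between 547.6 and 731.5 with LPS and between 1363 and 1434 without.

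**Figure D2:**
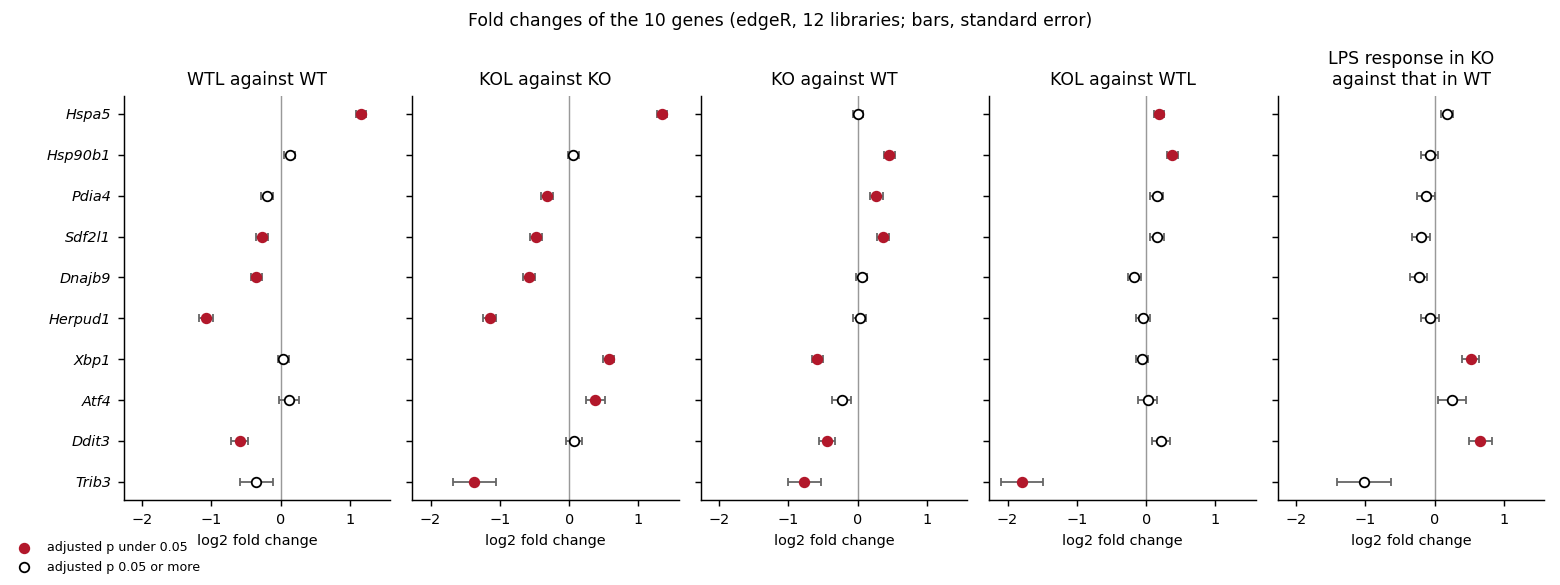
Log2 fold changes of the 10 genes in the 4 comparisons and in the difference between the LPS responses, with standard errors. Filled points passed an adjusted p of 0.05 in edgeR. Hspa5 and Herpud1 moved in opposite directions with LPS in both genotypes, and Trib3 had the lowest value in the comparison of KOL with WTL (-1.79).

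Hspa5 encodes BiP, the main Hsp70 chaperone of the ER, which also holds the sensors inactive. The gene lies on mm10 chromosome 2 (34771970 to 34777547, plus strand). This start is that of the GENCODE annotation and lies inside the stretch printed above, which ends before the RefSeq start. The ERSE of Hspa5 is therefore before the RefSeq start but after the GENCODE start. Hspa5 had 6275, 6364 and 6308 normalized counts in WT and 15216, 13707 and 13550 in WTL. In KO it had 6457, 6269 and 6331, and in KOL 15179, 16536 and 16591. The LPS libraries were above the others without overlap, and within each treatment the genotypes overlapped. Hspa5 rose with LPS by 1.16 ± 0.07 (log2) in WT (2.24-fold, edgeR adjusted p = 1.7e-09) and by 1.34 ± 0.07 in KO (2.53-fold, adjusted p = 3.4e-10). The difference between both responses was 0.18 ± 0.09 and did not pass (edgeR adjusted p = 0.22). KO differed from WT by 0.01 ± 0.07 (adjusted p = 0.94 in edgeR). KOL was above WTL by 0.19 ± 0.07 (edgeR adjusted p = 0.033), a call that was lost when WTL replicates 2 or 3, KOL replicates 2 or 3, or KO replicate 3 was left out (0.16 to 0.19, adjusted p 0.051 to 0.12). It was also lost with replicate number as a block (0.19, adjusted p = 0.054), without a filter on low counts (0.20, 0.089), with the 6 libraries alone (0.22, 0.12) and in limma on TPM (0.07 to 0.14, 0.26 to 0.76).

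Among the other genes tested with at least 100 normalized counts on average, those whose log2 normalized counts over the 12 libraries were most like Hspa5 were Inhba (Pearson r = 0.999), Tnfsf8 (0.998), Rars (0.998), Kpna3 (0.997) and Acot9 (0.997). Inhba encodes a subunit of activin A and had 312.6 normalized counts on average in WT, 12643 in WTL, 326.0 in KO and 20414 in KOL. Rars, a cytosolic arginyl-tRNA synthetase, had 686.4 in WT and 1224 in WTL. These values describe a pattern of 4 groups in which LPS gives most of the range, so the coefficient carries little about single libraries.

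Hsp90b1 encodes GRP94, the ER member of the Hsp90 family, and lies on chromosome 10 (86690209 to 86705509, minus strand). It had 7577, 7102 and 7229 normalized counts in WT, 9074, 7619 and 7322 in WTL, 10053, 9976 and 10063 in KO, and 9797, 10145 and 11394 in KOL. Both CTCF-deficient groups were above both WT groups without overlap. The gene was higher in KO than in WT by 0.46 ± 0.08 (log2; edgeR adjusted p = 0.00047) and higher in KOL than in WTL by 0.38 ± 0.08 (adjusted p = 0.0019). LPS gave 0.13 ± 0.08 in WT (edgeR adjusted p = 0.19) and 0.06 ± 0.08 in KO (adjusted p = 0.55). The pseudogene 1810014B01Rik overlaps this gene, with 26 to 52 counts a library, and the value of Hsp90b1 was not a whole number in any library, so RSEM divided some of its reads.

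Pdia4, which encodes the disulfide isomerase ERp72 (chromosome 6, 47796141 to 47813430, minus strand), had 750.5, 784.9 and 870.3 normalized counts in WT, 780.9, 672.7 and 645.4 in WTL, 1020, 965.9 and 920.8 in KO, and 694.7, 820.2 and 809.4 in KOL. KO was above the 3 other groups, which overlapped. It was higher in KO than in WT by 0.27 ± 0.09 (edgeR adjusted p = 0.025) and lower in KOL than in KO (-0.32 ± 0.09, adjusted p = 0.0064). The call for KO against WT was lost without WT replicate 1 (0.19), without WT replicate 2 (0.22), without KO replicate 1 (0.23) or without KO replicate 2 (0.28), with edgeR adjusted p of 0.17, 0.13, 0.10 and 0.062, and in limma on log2(TPM + 1) (0.17, adjusted p = 0.25). For WTL against WT the value was -0.20 ± 0.09 (edgeR adjusted p = 0.077), and it passed without WT replicate 1 (-0.32), WT replicate 2 (-0.29) or WTL replicate 1 (-0.29). KOL against WTL gave 0.15 ± 0.09 (adjusted p = 0.22).

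Sdf2l1 encodes an ER protein that works with BiP and its J-domain cofactors (chromosome 16, 17130138 to 17132383, minus strand). The normalized counts were 448.3, 512.4 and 509.1 in WT, 389.8, 433.3 and 393.4 in WTL, 685.5, 565.5 and 645.7 in KO, and 442, 421.2 and 500.8 in KOL. KO was again above the other groups without overlap. Sdf2l1 was higher in KO than in WT by 0.37 ± 0.09 (edgeR adjusted p = 0.0044), and the adjusted p was 0.050 without WT replicate 1 (0.27). It fell with LPS in KO (-0.48 ± 0.09, adjusted p = 0.0004) and in WT (-0.27 ± 0.09, adjusted p = 0.022 in edgeR), the latter not without WTL replicate 1 or WTL replicate 3 (-0.25 each, adjusted p of 0.053 and 0.066). The difference between both responses was -0.20 ± 0.13 (edgeR adjusted p = 0.33). KOL against WTL gave 0.16 ± 0.10 (adjusted p = 0.18).

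Dnajb9 encodes ERdj4, a J-domain cofactor of BiP and a classical XBP1 target (chromosome 12, 44205559 to 44210326, minus strand). It had 598, 533.4 and 511.7 normalized counts in WT, 411.3, 426.8 and 447.6 in WTL, 588.6, 550.1 and 569.7 in KO, and 369.9, 347.5 and 421.8 in KOL. The LPS libraries of both genotypes were below the others without overlap. Dnajb9 fell with LPS in WT (log2 fold change -0.35 ± 0.08, edgeR adjusted p = 0.0024) and in KO (-0.58 ± 0.08, adjusted p = 2.9e-05). The counts of KO and WT differed by 0.06 ± 0.08 (edgeR adjusted p = 0.61), and those of KOL and WTL by -0.17 ± 0.09 (adjusted p = 0.12), which passed without KOL replicate 3 (-0.26, adjusted p = 0.035).

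On the TPM scale, which divides by transcript length, Dnajb9 gave another picture in KO. RSEM reports an effective length that averages over a gene's transcripts by their estimated abundance. It was 2222, 2146 and 2244 bases in WT, 2221, 2234 and 2232 in WTL and 2233, 2224 and 2236 in KOL, but 1492, 1731 and 1577 in KO. The KO libraries lay apart below the 9 others. The mean TPM was accordingly 31.97 ± 3.16 (SD, n = 3) in KO and 23.8 ± 2.35 in WT, and limma on log2(TPM + 1) called KO higher by 0.41 (adjusted p = 0.0095) and the LPS response of KO lower than that of WT (-0.60, adjusted p = 0.024). The counts gave neither call. The tables used here hold genes and not transcripts, and which transcripts were used was not measured.

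**Figure D3:**
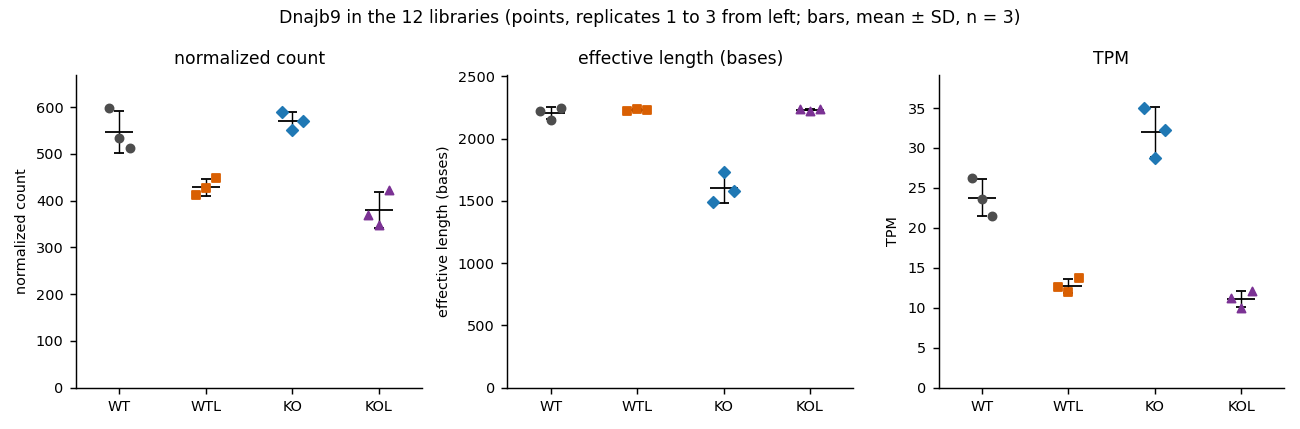
Dnajb9 in the 12 libraries as normalized counts (left), effective length in bases (middle) and TPM (right), with a point for each replicate and bars for the mean ± SD (n = 3). Counts of KO (550.1 to 588.6) lay within those of WT (511.7 to 598), whereas the effective length of KO (1492 to 1731) was below that of every other library.

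Herpud1 encodes HERP, a membrane protein of the complex that exports ER proteins for degradation (chromosome 8, 94386438 to 94395377, plus strand). It had 1363, 1399 and 1371 normalized counts in WT and 569.1, 648.9 and 731.5 in WTL. In KO it had 1434, 1405 and 1387, and in KOL 667.8, 547.6 and 683.4. The LPS libraries were below the others, and the genotypes overlapped within each treatment. Herpud1 fell with LPS in WT (log2 fold change -1.08 ± 0.10, 2.12-fold lower, edgeR adjusted p = 2.3e-07) and in KO (-1.15 ± 0.10, 2.22-fold lower, adjusted p = 9.5e-08). KO differed from WT by 0.03 ± 0.09 (edgeR adjusted p = 0.81) and KOL from WTL by -0.04 ± 0.10 (adjusted p = 0.77). Hspa5 and Herpud1, both with an ER stress element in the promoter window, were called in opposite directions with LPS in both genotypes.

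Xbp1, whose mRNA is the substrate of IRE1, lies on chromosome 11 (5520659 to 5525893, plus strand). Gene-level counts add its spliced and unspliced forms and cannot show splicing. It had 1657, 1614 and 1492 normalized counts in WT, 1501, 1676 and 1730 in WTL, 1053, 1082 and 1048 in KO, and 1571, 1420 and 1727 in KOL. KO stood alone below the 3 other groups, which overlapped. Xbp1 was lower in KO than in WT (log2 fold change -0.58 ± 0.08, edgeR adjusted p = 5.4e-05). With LPS it rose in KO by 0.57 ± 0.08 (adjusted p = 3.2e-05), while in WT the value was 0.04 ± 0.08 (adjusted p = 0.67 in edgeR). This difference between the LPS responses passed the test (0.52 ± 0.12, edgeR adjusted p = 0.0072), also without any single library (0.45 to 0.63). KOL and WTL differed by -0.06 ± 0.08 (adjusted p = 0.61).

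Atf4 encodes the transcription factor of the eIF2alpha branch, which is controlled mainly through translation (chromosome 15, 80255184 to 80257541, plus strand). It had 2793, 2691 and 2408 normalized counts in WT, 2368, 2916 and 3291 in WTL, 2281, 2217 and 2231 in KO, and 3307, 2201 and 3218 in KOL. The LPS groups were spread widely, and KOL replicate 2 was below every KO library. KO was below every WT and WTL library, but the value for KO against WT, -0.23 ± 0.14, did not pass (edgeR adjusted p = 0.20). With the 6 libraries of KO and WT alone, whose replicates were closer than those with LPS, it did (-0.23, adjusted p = 0.00036). Atf4 was higher in KOL than in KO by 0.38 ± 0.14 (edgeR adjusted p = 0.028). Without KOL replicate 2 it was 0.54 and was called, and leaving out KO replicate 1, 2 or 3 or KOL replicate 1 or 3 gave 0.27 to 0.38 with an adjusted p of 0.061 to 0.13. WTL against WT gave 0.12 ± 0.14 (adjusted p = 0.47 in edgeR) and KOL against WTL 0.02 ± 0.14 (adjusted p = 0.91). The LPS responses differed by 0.25 ± 0.20 (edgeR adjusted p = 0.42), and without KOL replicate 2 by 0.42 (adjusted p = 0.044).

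Ddit3 encodes CHOP, a transcription factor that is induced by ATF4 and favours cell death in lasting stress (chromosome 10, 127290774 to 127296288, plus strand). It had 297.6, 306.1 and 283.5 normalized counts in WT, 163.2, 187.4 and 233.9 in WTL, 227.9, 217 and 208.4 in KO, and 247.3, 244.5 and 194.3 in KOL. WT alone was above the other 3 groups, which overlapped. Ddit3 fell with LPS in WT (log2 fold change -0.59 ± 0.12, edgeR adjusted p = 0.00075) and was lower in KO than in WT (-0.44 ± 0.12, adjusted p = 0.0076), which was not called in limma on TPM scaled to a common median (-0.35, adjusted p = 0.058). In KO cells LPS gave 0.07 ± 0.12 (edgeR adjusted p = 0.63). The LPS responses differed by 0.66 ± 0.17 (edgeR adjusted p = 0.017), and without KO replicate 3 the difference was 0.63 with an adjusted p of 0.051. It was also not called in limma on log2(TPM + 1) without a filter (0.70, adjusted p = 0.082). KOL against WTL gave 0.22 ± 0.13 (adjusted p = 0.17), and 0.38 (adjusted p = 0.023) without WTL replicate 3. Ddit3 overlaps the antisense gene Mars, which had 160 to 498 counts a library and means of 398, 262, 422 and 271 normalized counts in WT, WTL, KO and KOL. The study's methods describe the libraries as strand-specific, but the strand setting of the counting was not given in the sources used here. Whether reads of the overlap were told apart is therefore not known.

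Trib3 encodes a pseudokinase that is a target of ATF4 and CHOP and inhibits AKT (chromosome 2, 152337422 to 152344032, minus strand). It had the fewest counts of the 10 genes: 42.25, 41.09 and 29.39 normalized counts in WT, 28.32, 34.66 and 25.52 in WTL, 17.94, 20.16 and 27.79 in KO, and 8.603, 7.02 and 9.61 in KOL. All KOL libraries were below all others. Trib3 was lower in KOL than in WTL (log2 fold change -1.79 ± 0.30, 3.46-fold lower, edgeR adjusted p = 0.00024) and lower in KOL than in KO (-1.37 ± 0.31, adjusted p = 0.0013). It was also lower in KO than in WT (-0.77 ± 0.24, edgeR adjusted p = 0.017), but not without WT replicate 1 or 2 or KO replicate 1 or 2 (-0.74 to -0.64, adjusted p 0.055 to 0.086) nor with DESeq2 (-0.79, adjusted p = 0.053). WTL against WT gave -0.35 ± 0.24 (adjusted p = 0.22), and the difference between the LPS responses was -1.02 ± 0.39 (edgeR adjusted p = 0.09). At this low level the pseudocount of the TPM scale shrinks the values: on log2(TPM + 1), KOL against WTL was -0.68 (limma adjusted p = 0.0022, and -0.73 with TPM scaled) and the difference between the responses -0.14 (adjusted p = 0.68), and on log2(TPM + 0.1) they were -1.55 and -0.72. Over the 12 libraries, the genes with the most similar log2 normalized counts were Pigs (Pearson r = 0.966), Melk (0.961), Rrm1 (0.961), Zfp317 (0.96) and Cyb561a3 (0.959). Rrm1, a subunit of the ribonucleotide reductase that supplies DNA synthesis, had 1368 normalized counts in WT, 1016 in WTL, 905.6 in KO and 489.2 in KOL. As with Hspa5, the coefficients mostly describe a pattern of 4 groups. The means of Trib3 were 37.58 in WT, 29.5 in WTL, 21.97 in KO and 8.411 in KOL. A link between these genes was not tested.

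Levels can be compared between genes only per length. In WT, Hspa5 had the highest TPM of the 10 (382.7 ± 18.9), followed by Hsp90b1 (273.7 ± 16.1) and Atf4 (167.2 ± 15.8). Xbp1 (94.56 ± 5.8) and Herpud1 (92.31 ± 1.71) came next, closer to each other than the SD of Xbp1. Sdf2l1 (53.25 ± 2.68), Ddit3 (45.25 ± 3.09), Pdia4 (35.91 ± 3.09), Dnajb9 (23.8 ± 2.35) and Trib3 (2.027 ± 0.367) had lower levels. In KOL, Trib3 was at 0.3033 ± 0.0473 TPM.

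The direction of small LPS effects depended on the scale. TPM values have a fixed total, and over all genes the median difference of log2(TPM + 1) was -0.438 for WTL against WT and -0.38 for KOL against KO. On this scale Hspa5 was still called higher with LPS (0.60 in WT, 0.74 in KO), but for WTL against WT Hsp90b1 became -0.40, Xbp1 -0.52 and Atf4 -0.42, all called lower by limma. For KOL against KO, Xbp1 became 0.06 and was not called, and Hsp90b1 (-0.41), Atf4 (-0.11) and Ddit3 (-0.38) changed sign. When TPM was first scaled to a common median, the rise of Xbp1 in KO with LPS was 0.53 (limma adjusted p = 7.1e-05) and the value of Atf4 was 0.36 (adjusted p = 0.07). The differences between the LPS responses, in which such a shift largely cancels, stayed at 0.51 to 0.59 for Xbp1 and 0.64 to 0.72 for Ddit3 over the alternative fits, with the call for Ddit3 lost in unfiltered limma.

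The 10 genes were set beside 9 lists that hold 181 genes of the same pathways, members included, chosen by textbook role. Their counts of calls with LPS depended on the scale in the same way as the 10 genes. In limma on unscaled log2(TPM + 1), LPS in WT gave 0 higher and 11 lower for the sensors and transcription factors, 3 and 24 for the ER chaperones, 2 and 12 for ER-associated degradation and 1 and 19 for translocation and export, whereas with TPM scaled to a common median these were 1 and 4, 10 and 7, 9 and 1, and 7 and 0. For WTL against WT the median over all genes was -0.438 in the unscaled fit and 0.017 with scaling. Shares of all genes called by limma are not given here, also for the limma counts below. The counts from edgeR follow, and the shares of all genes called in edgeR are those given above for each comparison. In the list of sensors and transcription factors, all 13 genes were tested, and 1 rose and 5 fell with LPS in WT. Eif2ak3, which encodes PERK, fell from 523.0 ± 27.9 to 160.2 ± 5.43 normalized counts (-1.71), and Ern1, which encodes IRE1, from 480.1 ± 25.6 to 293.9 ± 37.2 (-0.71). Nfya, a subunit of the CCAAT-binding factor NF-Y, rose by 0.52. Without LPS, 3 of these genes were higher and 4 lower in KO. Atf6 had the largest difference of the list, with 1136 ± 15.3 normalized counts in WT and 2666 ± 57.8 in KO (1.23), and Ern1 (0.61) and Nfyb (0.61) were also higher. Xbp1, the substrate of Ern1, was among the 4 lower.

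Of the 32 ER chaperones and folding enzymes, all tested, 10 rose and 7 fell with LPS in WT, where 30.0% of all genes were higher and 30.2% lower, and 14 rose and 7 fell in KO, where 33.6% and 33.9% were. The share that rose in WT was near that of all genes. Dnajb11 (0.80) and Dnajc1 (0.71), J-domain cofactors of BiP, rose in WT, whereas Cnpy3, a chaperone that helps Toll-like receptors reach the surface, fell from 957.0 ± 34.8 to 469.4 ± 21.9 normalized counts (-1.03). Compared with WT, KO had 11 higher and 4 lower, with a median of 0.15 against -0.014 over all genes. Manf (0.59), Txndc11 (0.58) and Pdia6 (0.54), a secreted ER stress factor and 2 thiol enzymes, were the other genes of the list that differed most. With LPS, 15 were higher and 4 lower in KOL than in WTL, with a median of 0.19. For all genes tested the shares were 21.4% higher and 23.3% lower in that comparison. Without WT replicate 3, 6 chaperones rose with LPS in WT, and the 4 that were lower in KO than in WT became 1 to 2 without WT replicate 1 or any one KO library.

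For ER-associated degradation, 21 of 21 genes were tested, and 9 rose and 2 fell with LPS in WT. Syvn1 (0.95) and Sel1l (0.87), the ubiquitin ligase HRD1 and its partner, and Vcp (0.55), the ATPase that pulls proteins out of the membrane, rose, while Herpud1, which recruits the same complex, fell. Without WT replicate 3, 5 rose. In KO against WT 4 were higher and 2 lower, with Os9 (0.99) and Edem1 (0.77), lectins that recognize misfolded glycoproteins, higher and Selenok (-0.39) lower. Among 26 genes of ER translocation and vesicle export, 9 rose and 1 fell with LPS in WT and 11 were higher and 1 lower in KO than in WT, where 7 were higher without WT replicate 1 or WT replicate 3. Sec23b (0.86), a coat protein of export vesicles, Ssr3 (0.61) and Srp54a (0.60) were those that moved most with LPS. Ssr2 (0.71), Kdelr2 (0.58), a receptor that returns ER chaperones from the Golgi, and Sec61b (0.57), a subunit of the translocation channel, differed most in KO among genes with at least 100 normalized counts on average. Below that level, and named with its value in view, Kdelr3, another receptor of this kind, had 10.13 in WT and 75.15 in KO (2.87, edgeR adjusted p = 4.1e-08).

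**Figure D4:**
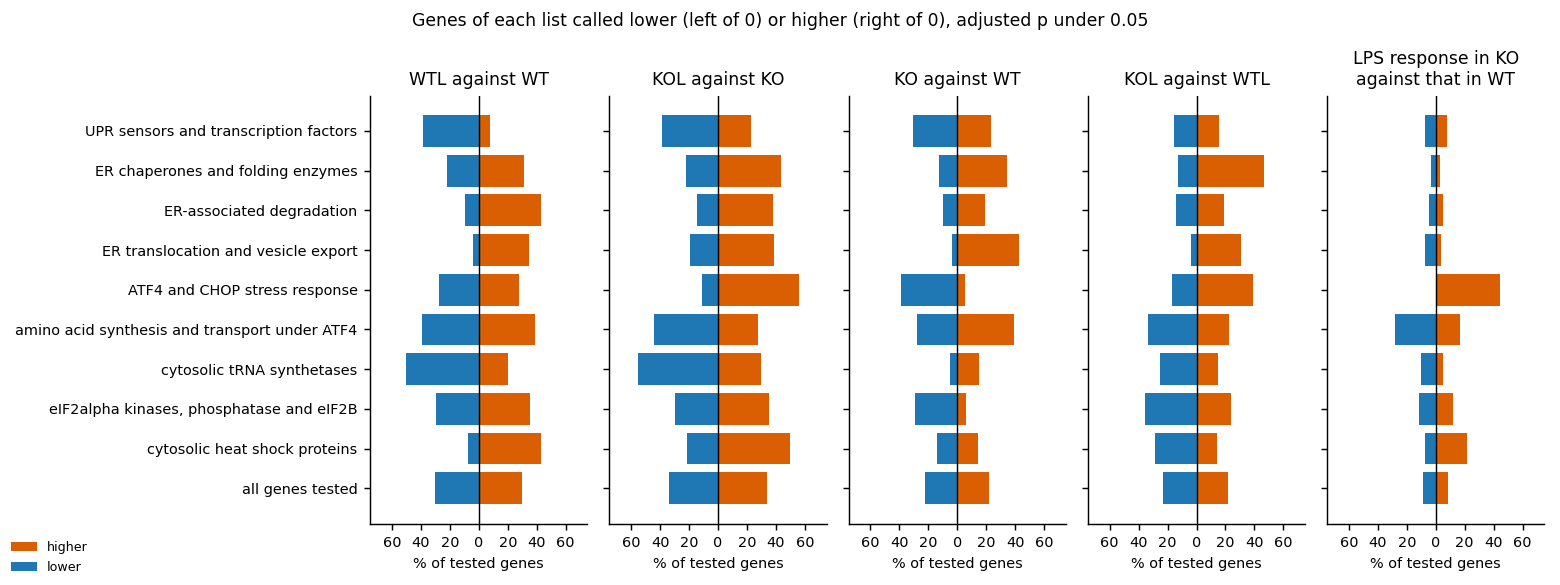
Share of the tested genes of each list that were called lower (left of 0) or higher (right of 0) in each comparison, with all 14008 genes tested in the last row. For the difference between LPS responses, 8 of 18 ATF4 and CHOP genes were called higher and 0 lower, where 8.70% and 8.75% of all genes were.

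In the list of ATF4 and CHOP genes, 18 of 21 were tested, and Vldlr, Fgf21 and Stc2 had at most 4 counts in any library. With LPS in WT, 5 rose and 5 fell. Cdkn1a, a cell cycle inhibitor, rose from 6776 ± 246 to 22892 ± 3200 normalized counts (1.76), Nupr1, a small stress-induced chromatin protein, rose by 1.67 and Ppp1r15a, which encodes GADD34 and reverses the phosphorylation of eIF2alpha, by 1.54. Between KO and WT, 1 was higher (Atf5, a transcription factor translated like ATF4, 1.09) and 7 were lower, among them Nupr1 (-0.75) and Cdkn1a (-0.42), and the median was -0.26. The 7 became 3 to 4 without WT replicate 1 or 2 or any one KO library, and 3 with TPM scaled to a common median. With LPS in KO, 10 rose and 2 fell, with a median of 0.39, and in limma on unscaled log2(TPM + 1) 5 were higher and 6 lower.

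The LPS response of this list was higher in KO than in WT for 8 genes and lower for 0, with a median difference of 0.47 against -0.016 over all genes tested. DESeq2 also called 8 higher and 0 lower, and limma on log2(TPM + 1) 8 and 0, or 4 and 0 without a filter. Leaving out each library in turn gave 6 to 10 higher and 0 lower. The 8 were Ddit4 (1.18), Nupr1 (0.99), Sesn2 (0.95), Gdf15 (0.95), Tnfrsf10b (0.75), Bbc3 (0.66), Ddit3 (0.66) and Ppp1r15a (0.51), named here with their values in view. Ddit4, which inhibits mTORC1, had 295.6 ± 15.6 normalized counts in WT and 126.1 ± 12.5 in WTL, but 318.3 ± 37.8 in KO and 308.2 ± 19.5 in KOL. Sesn2, which senses leucine and also restrains mTORC1, had 668.9 ± 9.61 and 396.5 ± 83.1 in WT and WTL, and 801.7 ± 37.3 and 924.0 ± 126 in KO and KOL. Both fell with LPS in WT (edgeR adjusted p of 2.4e-07 and 0.00014) and were not called in KO. Tnfrsf10b and Bbc3, which encode a death receptor and the BCL2 family protein PUMA, were called higher with LPS in KO (0.41 and 0.64), whereas in WT Tnfrsf10b was called lower (-0.34) and Bbc3 was at -0.01. Of the 8, Nupr1, Ppp1r15a, Gdf15 and Ddit3 had a lower mean in KO than in WT without LPS, and the others a higher one. Nupr1 had 392.1 ± 23.5 normalized counts in WT and 232.8 ± 17.7 in KO, but 1245 ± 118 in WTL and 1469 ± 51.5 in KOL. Trib3 did not follow the 8, with a difference of -1.02 that did not pass. The genes were listed by textbook role, and the part of ATF4 or CHOP in these differences was not tested.

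**Figure D5:**
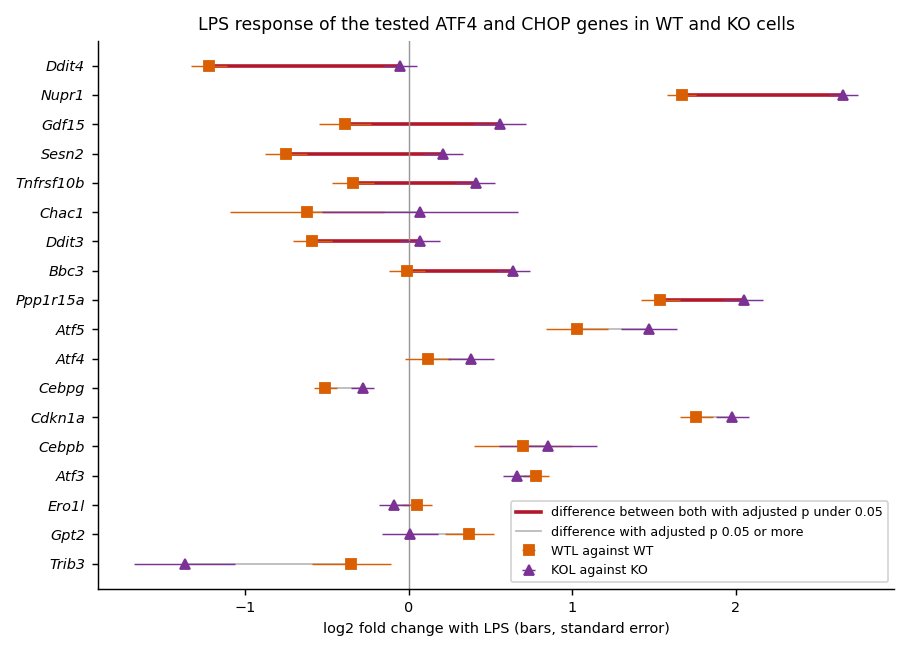
Log2 fold change with LPS of the 18 tested ATF4 and CHOP genes in WT cells (squares) and KO cells (triangles), with standard errors. Thick lines join the 8 genes whose responses differed at an adjusted p below 0.05 in edgeR, from Ddit4 (1.18) to Ppp1r15a (0.51). All 8 were called higher in KO, which by itself places the KO value to the right of the WT value.

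The genes of amino acid synthesis and transport under ATF4 did not move in that way. Of 18 tested of 20, 7 rose and 7 fell with LPS in WT, and for the difference between the responses 3 were higher and 5 lower. Slc7a11, the cystine importer (1.21), and Mthfd2, a mitochondrial folate enzyme (1.08), rose with LPS in WT, and Slc38a2, a neutral amino acid transporter, fell (-0.74). In KO against WT, Slc7a5, a leucine transporter, had 500.7 ± 16.7 against 186.9 ± 22 normalized counts (1.42) and Asns, asparagine synthetase, 225.4 ± 6.82 against 113.9 ± 6.74 (0.98), whereas Mthfd2 was lower (-1.11). Of the 20 cytosolic tRNA synthetases, 4 rose and 10 fell with LPS in WT (30.0% and 30.2% of all genes), with Wars (0.87) and Rars (0.83) higher and Iars (-0.70) lower. Of these, 3 were higher and 1 lower in KO than in WT, and Wars (0.58), Yars (0.35) and Vars (0.31) were the 3 that were higher.

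Of 17 genes of eIF2alpha kinases, phosphatase and eIF2B, 6 rose and 5 fell with LPS in WT. Eif2ak2, which encodes the double-stranded RNA sensor PKR and is induced by interferon, rose from 1284 ± 10.8 to 7853 ± 1657 normalized counts (2.61). Without LPS, 1 was higher and 5 lower in KO, with Eif2ak2 (-0.75) and Ppp1r15b (-0.39), the constitutive eIF2alpha phosphatase subunit, lower and Eif2b5 (0.37) higher. The list of cytosolic heat shock proteins, many of which answer to HSF1 and not to ER stress, also holds the transcription factor genes Hsf1 and Hsf2. Of its genes 14 of 16 were tested, and 6 rose and 1 fell with LPS in WT. Hspa1b (1.38), Hspa1a (1.13) and Dnaja1 (0.87) were the 3 that rose most. In KO, 2 were higher than in WT, Hsf1 (0.33) and Hsp90ab1 (0.27), and 2 lower, with Hspa1a at -0.85. Hspa1a and Hspa1b are near-identical copies, and the division of their reads between them is uncertain.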

How the data were processed

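Reads were trimmed by the authors (Trim Galore), aligned with STAR to mm10 (version 2.5.1 of STAR per the submitters' processing notes) and quantified with RSEM. Per library they deposited an expected count (an estimated count), a TPM value and an effective length for 55335 genes. For library preparation, the labels speak of removing ribosomal RNA and the study's methods of strand-specific libraries with poly(A) selection. The strand setting of the counting was not given in the sources used here.

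Expected counts were rounded to whole numbers, filtered by group with filterByExpr (14008 genes left), normalized by TMM and tested with edgeR 4.0.16 (glmQLFit, glmQLFTest, R 4.3.3), with the 12 libraries fitted together without covariates, Benjamini-Hochberg adjustment over all genes tested and a threshold of 0.05. No fold cutoff was used. Errors of levels are SD over 3 replicates, and p-values measure the spread between these libraries. Totals of 12769773 to 16586334 counts leave a counting error that is largest for Trib3. The test was first checked on simulated counts.

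Alternatives were DESeq2 1.42.0, its size factors in edgeR, no filter, the 6 libraries of a pair, a replicate block, the deposited TPM values tested by limma 3.58.1, with a pseudocount of 1 or 0.1 on the log2 scale, keeping genes that reached 1 TPM in at least 3 libraries (and, with the pseudocount of 1, without that filter), the fold cutoffs of the study (2 with LPS, 1.3 for KO against WT, 1.5 for KOL against WTL) and leaving out each library. Scaling TPM to a common median was added after seeing the data. Positions are GENCODE M21, matched by identifier (Xbp1 without its version). Of 2 identifiers named Ddit3, the one with 4 counts in all libraries was not used.

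The genes and the pathway and marker lists were chosen with earlier results of these data known. Named from each list were at most 3 other genes with the largest called fold changes for WTL against WT and KO against WT and at least 100 normalized counts on average, and 5 genes most correlated with Hspa5 and with Trib3. The 8 genes of the difference in LPS response, Kdelr3 and the genes not tested were named outside this rule.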

Additional observations from a re-analysis of the deposited data

Results flagged for a closer look

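The LPS response of Xbp1 differed between genotypes in the edgeR test of the difference, by 0.52 ± 0.12 (log2, adjusted p = 0.0072). KO libraries (1048 to 1082 normalized counts) were the only group apart from the others, and the KOL libraries (1420 to 1727) overlapped WT and WTL. The LPS response of Ddit3 differed in the same test by 0.66 ± 0.17 (edgeR adjusted p = 0.017). Here WT (283.5 to 306.1 normalized counts) was the group apart, and the difference had an adjusted p of 0.051 without KO replicate 3 and of 0.082 in limma on unfiltered log2(TPM + 1). Groups of 3 libraries are too small for an outlier test.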

How the results depend on the processing

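Of the log2 fold changes of the 10 genes, DESeq2 kept 48 of 50 in direction and call, DESeq2's size factors 49, no filter 49 and the replicate block 49. Replicate numbers did not pair the libraries (18 same-numbered pairs, r of deviations -0.286 to 0.112), and the block removed the call of Hspa5 for KOL against WTL and no other. limma on log2(TPM + 1), on log2(TPM + 0.1) and on log2(TPM + 1) without a filter changed most. They called 9, 9 and 8 genes lower for WTL against WT, 1, 1 and 1 higher for KOL against WTL, 1, 1 and 1 higher for KOL against KO, and 1, 1 and 1 lower for the difference in LPS response (Dnajb9). The unfiltered limma fit called 1 higher for that difference. Over all genes, the median for WTL against WT was -0.438, -0.515 and -0.065 in these 3 fits. Shares of all genes called are given here for edgeR alone, so these limma counts are not set against a background. In this order of the 3 fits, WTL against WT reversed for Hsp90b1 (-0.40, -0.40, -0.40), Xbp1 (-0.52, -0.53, -0.52) and Atf4 (-0.42, -0.43, -0.42). KOL against KO reversed for Hsp90b1 (-0.41, -0.41, -0.41), Atf4 (-0.11, -0.11, -0.11) and Ddit3 (-0.38, -0.39, -0.38). Of values near 0, KO against WT reversed for Hspa5 (-0.07 in the 3 fits, -0.01 with DESeq2 and with its size factors) and Herpud1 (-0.16 in the 3 fits), KOL against WTL for Atf4 (-0.01 in the 3), and the difference in LPS response for Herpud1 (0.09 in the 3). With TPM scaled to a common median, an alternative chosen after seeing the data, Herpud1 reversed for KO against WT (-0.01), KOL against WTL (0.01) and the difference (0.02), 1 gene was higher for KOL against WTL and 1 was lower for the difference. No filter, the 6 libraries alone and the block each gave 1 higher for KOL against WTL. With the fold cutoffs of the study, 1 was lower for WTL against WT (Herpud1), 1 higher for KO against WT, 0 higher for KOL against WTL, and 1 higher and 2 lower for KOL against KO. The cause of these differences was not tested, other than that a fold cutoff removes small changes.

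Leaving out each library in turn gave 1 to 1 genes higher and 3 to 5 lower for WTL against WT, 1 to 3 higher and 2 to 3 lower for KO against WT, 1 to 2 higher and 1 to 2 lower for KOL against WTL, 2 to 3 higher and 5 to 5 lower for KOL against KO, and 1 to 3 higher and 0 to 0 lower for the difference in LPS response. The sign changed, always near 0, for Xbp1 (-0.07 to 0.10) and Atf4 (-0.02 to 0.24) in WTL against WT, for Hspa5 (-0.03 to 0.02), Dnajb9 (-0.02 to 0.09) and Herpud1 (-0.01 to 0.04) in KO against WT, for Xbp1 (-0.13 to 0.01), Herpud1 (-0.12 to 0.06) and Atf4 (-0.09 to 0.19) in KOL against WTL, for Hsp90b1 (-0.01 to 0.10) in KOL against KO, and for Hsp90b1 (-0.14 to 0.03) and Herpud1 (-0.15 to 0.02) in the difference. Of the counts of calls in the 9 lists, 4 moved by over 1.5 times and 86 did not with DESeq2, 8 and 82 with the block, 44 and 46 with limma on log2(TPM + 1), 24 and 66 with the scaled TPM, and 156 and 924 when a library was left out. At this depth, the counts of Trib3 limit its precision most.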

Other observations

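Within the LPS groups, libraries that were high for one of the 10 genes were often high for another. WTL replicate 1 was low and WTL replicate 3 high, against their group mean, for Atf4 (-0.26 and 0.22, log2), Ddit3 (-0.24 and 0.28) and Herpud1 (-0.18 and 0.18). For Hspa5 (0.11 and -0.06), Hsp90b1 (0.19 and -0.12) and Pdia4 (0.16 and -0.11) the order was the opposite. KOL replicate 2 was low for Atf4 (-0.38), Herpud1 (-0.20) and Xbp1 (-0.14), but not for Ddit3 (0.10).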
